A study of Homo sapiens with 16 samples.

Results

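The antioxidant defence genes described here are SOD1, SOD2, SOD3, CAT, GPX1, GPX3, PRDX1, TXNRD1, NQO1 and HMOX1. They were chosen by name from the known enzymes that remove superoxide, peroxides, quinones and haem, and SOD2 was put on the list for its bulk values, which hardly moved under tumour necrosis factor (TNF) although the gene is a classic target of the transcription factor NF-kB. All 10 genes are listed in each of the 3 bulk tables, of 20121, 27650 and 21093 genes, and 9 of them are among the 36601 genes of the single-cell matrices, where GPX1 is missing.

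The samples were kidney organoids grown from UM77-2, a human embryonic stem cell line with no further genetic change named in the labels. Bulk RNA was measured in a first set with 1 library each of day 21 (D21), day 25 (D25) and day 29 (D29), in a second set with 2 libraries a day (Org1 and Org2), and in a further set of day 25 organoids given TNF at 5 ng/ml or the vehicle control (VC) for 24 h or 48 h, with 1 library a group. Bulk RNA came from isolated spheroids. Single cells came from whole-well cultures given the same 5 ng/ml of TNF, or left as the control that is also called VC here, for 24 h and collected on day 24, again with 1 library a group. The 2 sets of culture days had no treatment. Nothing in the labels says that the libraries of a group came from separate cultures, so p-values measure only the spread between these libraries. The single-cell library of a further day 25 control was not analysed here.

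Cells make superoxide mainly in mitochondria, and superoxide dismutases turn it into hydrogen peroxide. SOD1 acts in the cytosol, SOD2 in the mitochondrial matrix and SOD3 outside the cell. Catalase (CAT), the glutathione peroxidases (GPX1 inside cells, GPX3 secreted into plasma and made largely by the kidney's proximal tubule) and the peroxiredoxin PRDX1 then remove the peroxide, while TXNRD1 keeps thioredoxin reduced, NQO1 reduces quinones and HMOX1 breaks down haem. The transcription factor NRF2 drives many of these genes through a DNA motif called the antioxidant response element (ARE), and NF-kB drives SOD2 in many cell types.

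The promoters of the genes on which the results below turn are shown so that their letters can be compared. They are RefSeq sequences of GRCh38.p14, given 5′ to 3′ on the gene's own strand, and cover the 250 bases before an annotated start. Capitals mark a match to the core of the ARE, TGACNNNGC on either strand. The first 3 are of GPX3, the gene with the largest difference under TNF, of CAT, which was lower with it, and of SOD2 at the start that lies nearest to its 3′ end.
GPX3, chr5:151020341-151020590, plus strand: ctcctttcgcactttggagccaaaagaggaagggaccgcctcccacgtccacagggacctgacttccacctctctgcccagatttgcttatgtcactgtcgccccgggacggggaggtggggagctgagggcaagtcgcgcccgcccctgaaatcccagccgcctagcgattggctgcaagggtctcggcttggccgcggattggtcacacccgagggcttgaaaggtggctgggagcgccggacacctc
CAT, chr11:34438684-34438933, plus strand: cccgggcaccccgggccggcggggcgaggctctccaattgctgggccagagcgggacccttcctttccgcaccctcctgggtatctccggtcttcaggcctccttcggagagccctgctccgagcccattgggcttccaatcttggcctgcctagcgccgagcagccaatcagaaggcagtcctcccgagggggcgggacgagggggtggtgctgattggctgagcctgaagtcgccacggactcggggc
SOD2, chr6:159693242-159693491, minus strand: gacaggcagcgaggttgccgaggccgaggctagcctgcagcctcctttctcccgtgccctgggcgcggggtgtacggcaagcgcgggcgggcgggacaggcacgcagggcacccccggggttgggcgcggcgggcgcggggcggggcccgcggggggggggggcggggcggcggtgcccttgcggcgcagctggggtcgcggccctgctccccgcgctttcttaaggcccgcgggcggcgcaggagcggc
Both starts of TXNRD1 held the motif, and they are shown as the only matches among the windows.
TXNRD1, chr12:104215529-104215778, plus strand: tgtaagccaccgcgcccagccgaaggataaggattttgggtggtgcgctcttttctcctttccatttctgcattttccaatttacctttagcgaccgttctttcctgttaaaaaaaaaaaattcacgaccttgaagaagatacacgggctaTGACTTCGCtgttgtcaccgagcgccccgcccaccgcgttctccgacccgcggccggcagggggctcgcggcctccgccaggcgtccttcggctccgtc
TXNRD1, chr12:104286782-104287031, plus strand: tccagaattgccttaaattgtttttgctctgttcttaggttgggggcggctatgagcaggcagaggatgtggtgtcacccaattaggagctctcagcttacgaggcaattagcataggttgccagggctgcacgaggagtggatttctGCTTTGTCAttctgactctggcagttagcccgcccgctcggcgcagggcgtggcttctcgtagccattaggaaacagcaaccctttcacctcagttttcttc

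RefSeq windows were at hand for 7 of the 10 genes, 11 windows in all. The ARE core stood in the 2 windows of TXNRD1, beginning 99 and 102 bases before the start, and in no window of SOD2, SOD3, CAT, GPX1, GPX3 or NQO1. Of all 35116 promoter windows of that length, 10.9% held the motif. The NF-kB consensus was searched on both strands in a narrow form that asks for A or T at a middle base. In this form it was found in none of the 11 windows, including the 4 of SOD2, and in 5.21% of all windows. The wider form that was planned, which allows any base there, was not searched. These matches describe the letters of these windows only.

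In GENCODE 44 on GRCh38 the superoxide dismutase genes lie at chr21:31659666-31668931 (SOD1, plus strand), chr6:159669069-159762529 (SOD2, minus strand) and chr4:24789912-24800842 (SOD3, plus strand). CAT lies at chr11:34438934-34472060, GPX3 at chr5:151020591-151028988, TXNRD1 at chr12:104215779-104350307 and HMOX1 at chr22:35380361-35394214, all on the plus strand. GPX1, at chr3:49357174-49358605, PRDX1, at chr1:45510914-45542732, and NQO1, at chr16:69706996-69726668, are on the minus strand. SOD2 has the identifier ENSG00000112096 in the deposited tables and ENSG00000291237 in GENCODE 44, so it was matched by its symbol. Its exons share 437 bases with those of WTAP and 133 with those of ACAT2, both on the opposite strand, and 939 with the non-coding SOD2-OT1 on its own strand, out of 18144 exon bases. Of the exon bases of GPX1, 39.9% are shared with a second coding gene on its strand, 29.8% of those of PRDX1 with MMACHC on the opposite strand, and 19.4% of those of NQO1 with a non-coding gene on the opposite strand. The sources used here do not say how the counting treated strand and shared exons, so the bulk values of these 4 genes are less certain than the others. The study's methods name an Ensembl reference and not GENCODE 44, so the overlaps in the gene models that were counted may differ from these.

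The 13 bulk libraries held 19073609 to 59246286 counted reads. Bulk levels are given as CPM (reads scaled to the total of the library) and bulk differences on the deposited scale of log2(CPM + 1), which understates the change of genes near 1 CPM. In the TNF set, 12 of the 13 listed NF-kB target genes were at least 2-fold higher with TNF at 24 h, with a median log2 difference of 3.09, and 11 of 13 at 48 h, with a median of 2.64. ICAM1, an adhesion molecule, went from 6.20 to 197 CPM at 24 h and VCAM1 from 19.3 to 495 CPM. In bulk, fewer cells of a type and less RNA per cell cannot be told apart.

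Over culture time, GPX3 and HMOX1 were the members that passed limma's test in the second set. In the first set, with 1 library a day, SOD3 alone lay past 2-fold between D21 and D29, as did 904 of all 20121 genes. In the second set, 2 of the 10 genes passed the test between D29 and D21 (limma, Benjamini-Hochberg adjusted p under 0.05 over all genes), 1 between D25 and D21 and 1 between D29 and D25. Of all genes tested, 18.4%, 5.37% and 2.08% passed in these comparisons, and with 10 members a single gene decides on which side of these shares the list falls. SOD2 is counted among the 10, but nothing is read from its place in these counts, since it was picked for flat bulk values. The median log2 difference of the 10 genes between D29 and D21 was 0.08, against -0.02 for all genes.

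Among the dismutases, SOD1 stood at 126 and 112 CPM in the D21 libraries of the second set, 123 and 128 CPM at D25, and 124 and 126 CPM at D29. The days overlapped, and the D29 to D21 log2 difference was 0.07 (95% interval -0.10 to 0.25, limma). In the first set SOD1 was 106, 102 and 90.5 CPM at D21, D25 and D29.

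SOD2 was 91.3 and 87.0 CPM at D21, 90.0 and 92.5 CPM at D25, and 91.2 and 88.0 CPM at D29 in the second set. All 6 libraries lay within this narrow range and the days overlapped. The D29 to D21 log2 difference was 0.01, given with no interval and no test because SOD2 was picked for flat bulk values. The first set gave 89.2, 85.0 and 82.9 CPM in day order.

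SOD3, the extracellular dismutase, was low, at 2.05 and 1.18 CPM at D21, 1.86 and 1.91 CPM at D25, and 2.56 and 3.89 CPM at D29. Both D29 libraries were above all earlier ones, yet the Org1 and Org2 libraries of D29 differed widely. The log2 difference D29 to D21 was 0.69 (SE 0.22, n = 2 a day), with a limma adjusted p of 0.067 that missed the threshold. edgeR's quasi-likelihood test on the recovered reads gave 1.05, with an adjusted p of 0.0237, and DESeq2 0.0494, so the call rests on the method. In the first set SOD3 was 1.38 CPM at D21, 3.38 at D25 and 3.98 at D29.

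**Figure D1:**
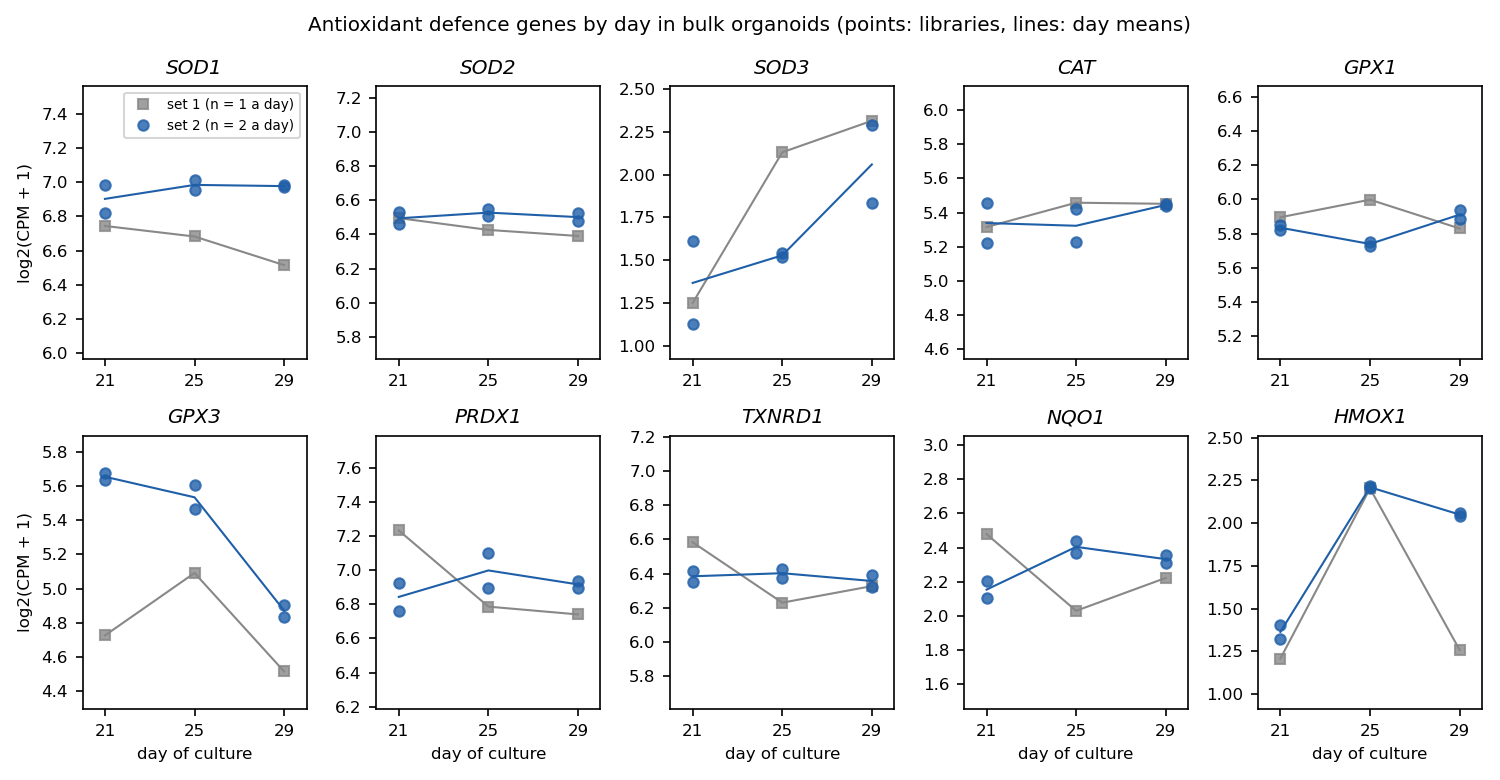
The 10 antioxidant genes by day of culture (x axis, days) on the log2(CPM + 1) scale (y axis, each panel spans the same 1.6 units), with 1 point per library and lines through the day means, for set 1 (squares) and set 2 (circles). GPX3 in set 2 fell from 5.65 at D21 to 4.87 at D29, HMOX1 rose from 1.36 to 2.21 at D25, and SOD2 stayed between 6.39 and 6.55 in all 9 libraries.

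Of the enzymes that remove peroxide, GPX3 fell late. It stood at 50.1 and 48.7 CPM at D21, 43.1 and 47.7 CPM at D25, and 29.0 and 27.6 CPM at D29. Both D29 libraries were below all others in the set. The log2 difference was -0.78 (SE 0.08, n = 2 a day) from D21 to D29, with a limma adjusted p of 0.000549, and -0.66 (SE 0.08) from D25 to D29, with a limma adjusted p of 0.0133. The latter call was lost when either D25 library was left out, while the former held without each library in turn. The first set had less GPX3, with 25.5 CPM at D21, 33.1 at D25 and 21.9 at D29, and its log2 difference D29 to D21 was -0.21.

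Kidney epithelial markers also fell between D21 and D29 in the second set. The summed level of 8 proximal tubule markers, all listed, was 1098 to 1285 CPM at D21, 1072 to 1089 at D25 and 583 to 709 at D29 in the second set. Between D21 and D29, 6 of the 8 passed the limma test as lower, in a comparison that 18.4% of all genes passed. The 8 podocyte markers summed to 11220 and 11850 CPM at D21, 9188 and 9354 CPM at D25, and 7667 and 3615 CPM at D29. Of these podocyte markers, 6 passed the same test as lower. The 8 stromal markers summed to 4219 to 4817 CPM at D21 and 14150 to 17670 at D29, and 7 passed the test as higher. In the first set the podocyte markers summed to 7131, 4386 and 2796 CPM in day order. The proximal tubule markers there summed to 667, 567 and 563 CPM, beside 25.5, 33.1 and 21.9 CPM of GPX3. The part of the marker shifts in the GPX3 values was not tested.

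CAT was 42.8 and 36.4 CPM at D21, 41.8 and 36.4 CPM at D25, and 42.7 and 42.4 CPM at D29, with a D29 to D21 log2 difference of 0.11 (95% interval -0.13 to 0.34). GPX1 was 56.6 and 55.5 CPM at D21, 52.8 and 52.1 CPM at D25, and 58.0 and 60.4 CPM at D29, a log2 difference of 0.08 (95% interval -0.07 to 0.23) between D29 and D21. PRDX1 was 120 and 108 CPM at D21, 118 and 136 CPM at D25, and 118 and 121 CPM at D29. None of these 3 genes passed the limma test between any days. In the first set PRDX1 was 149 CPM at D21 and 109 and 106 CPM at the later days, a log2 difference D29 to D21 of -0.49 that the second set, at 0.07 (95% interval -0.13 to 0.28), did not show.

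TXNRD1, the thioredoxin reductase of the cytosol, was 84.4 and 80.6 CPM at D21 and 83.1 and 78.9 CPM at D29, and the days overlapped. NQO1, the quinone reductase, was low, at 3.30 and 3.61 CPM at D21, 4.17 and 4.42 CPM at D25, and 4.11 and 3.96 CPM at D29. Neither passed the limma test in any comparison.

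HMOX1, which breaks haem down to iron, carbon monoxide and biliverdin, rose early. It stood at 1.499 and 1.65 CPM at D21, 3.64 and 3.61 CPM at D25, and 3.12 and 3.16 CPM at D29. All D25 and D29 libraries were above the D21 libraries. The log2 difference D25 to D21 was 0.85 (SE 0.15, n = 2 a day), with a limma adjusted p of 0.0182, and that from D21 to D29 was 0.69 (SE 0.15), with a limma adjusted p of 0.0148. The D25 call was lost without any 1 of the D21 or D25 libraries. The D29 call was lost without either D21 library or the Org2 library of D29, with limma adjusted p of 0.0302 to 0.0935 over the libraries left out. The first set also went from 1.31 CPM at D21 to 3.61 at D25 but was back at 1.39 CPM at D29. These levels rest on 32 to 96 reads a library in the 2 sets.

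Among the related genes, 9 of 27 listed other antioxidant enzymes passed the limma test between D29 and D21, 5 of them higher. Of all genes tested, 18.4% passed in this comparison, the share to set beside each list count here. MSRB3 rose by 0.63 on the log2 scale and BLVRB, a biliverdin reductase, by 0.55, while the selenoprotein MSRB1 fell by 1.46 and MSRA by 0.45, with limma adjusted p of 0.00253, 0.0117, 9.48e-05 and 0.0468. All but BLVRB of these repair oxidised methionine. Of 22 NRF2 targets, 6 passed as higher and 2 as lower. They were led by AKR1C2 at 1.21 and ME1 at 1.03 upwards and SLC7A11, the cystine carrier, at -0.55 and ABCC4 at -0.43 downwards. Of 10 regulators only NFE2L2, which encodes NRF2, passed, and it rose by 0.59 (limma adjusted p of 0.00324). Of 8 listed sources of superoxide and peroxide, the monoamine oxidase MAOA fell by 1.35 and MAOB rose by 0.35, with limma adjusted p of 0.00022 and 0.017. Of the 14 NF-kB targets, 8 passed as higher and none as lower between D21 and D29, with a median log2 difference of 0.56 over the list. CCL2, a chemokine, rose by 1.64 (limma adjusted p of 0.00104) and ICAM1 by 1.56 (limma adjusted p of 0.00205). Median log2 differences were -0.01 for the other enzymes, 0.03 for the NRF2 targets, -0.09 for the regulators and -0.04 for the sources. In the first set no other antioxidant enzyme of 27 and no NRF2 target of 21 lay past 2-fold between D21 and D29. Their medians there were -0.06 and -0.18, while 2 of 12 NF-kB targets were at least 2-fold higher, with a median of 0.56. Of all 20121 genes of the first set, 904 lay past 2-fold in this comparison, 621 of them higher.

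Under TNF in bulk, GPX3 and HMOX1 were lower and none of the dismutases lay past 2-fold. Each time point has 1 library a group, so the values are described with no test and their intervals cover read counting only. Past a log2 difference of 1 lay 2 of the 10 genes at 24 h and 2 at 48 h, against 2.01% and 1.82% of all genes, and nothing is read from this since the list was made with these values known. The same 2 genes were at -1 or lower at both times, as were 0.507% of all genes.

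SOD2 was 88.1 CPM with VC and 84.7 CPM with TNF at 24 h, and 84.7 and 81.9 CPM at 48 h. The ratio was 0.961 (95% counting interval 0.923 to 1.002) at 24 h and 0.966 (0.927 to 1.01) at 48 h. SOD1 was 175 with VC and 191 CPM with TNF at 24 h, a ratio of 1.09 (1.06 to 1.12), and 183 CPM in both libraries at 48 h. SOD3 was 3.42 and 3.26 CPM at 24 h and 3.57 and 2.78 CPM at 48 h, the lower level in each case with TNF. The SOD3 ratio was 0.955 (0.771 to 1.18) at 24 h and 0.777 (0.624 to 0.966) at 48 h, on 164 to 185 reads a library.

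GPX3 was 122 CPM with VC and 33.1 CPM with TNF at 24 h, and 114 and 28.4 CPM at 48 h. It thus stood at 27.0% and 25.0% of its VC level, with log2 differences of -1.86 and -1.96. Untreated D25 organoids had 33.1 CPM of GPX3 in the first set, and 43.1 and 47.7 CPM in the second. Both VC libraries were above these levels, and the TNF libraries were near or below them. CAT was 74.7 and 46.7 CPM at 24 h and 73.1 and 50.9 CPM at 48 h, or 62.5% and 69.7% of VC. In untreated D25 organoids CAT was 42.9 CPM in the first set, and 41.8 and 36.4 CPM in the second, below all libraries of the TNF set. GPX1 went from 96.1 with VC to 107 CPM with TNF at 24 h, but was 108 and 106 CPM at 48 h. PRDX1 was 171 and 188 CPM at 24 h and 178 and 177 CPM at 48 h.

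TXNRD1 was 91.7 with VC and 95.02 CPM with TNF at 24 h, and 86.1 and 85.1 CPM at 48 h. NQO1 was 6.23 and 6.12 CPM at 24 h and 6.64 and 5.90 CPM at 48 h. HMOX1 was 10.3 with VC and 2.96 CPM with TNF at 24 h, and 8.22 and 3.33 CPM at 48 h, or 28.7% and 40.6% of VC, on 155 to 560 reads a library. Untreated D25 organoids had 3.61 CPM of HMOX1 in the first set, and 3.64 and 3.61 CPM in the second, nearer to TNF than to VC. SOD2 in the same libraries, at 85.0, 90.0 and 92.5 CPM, was near its VC level. The gaps between the sets were not tested.

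**Figure D2:**
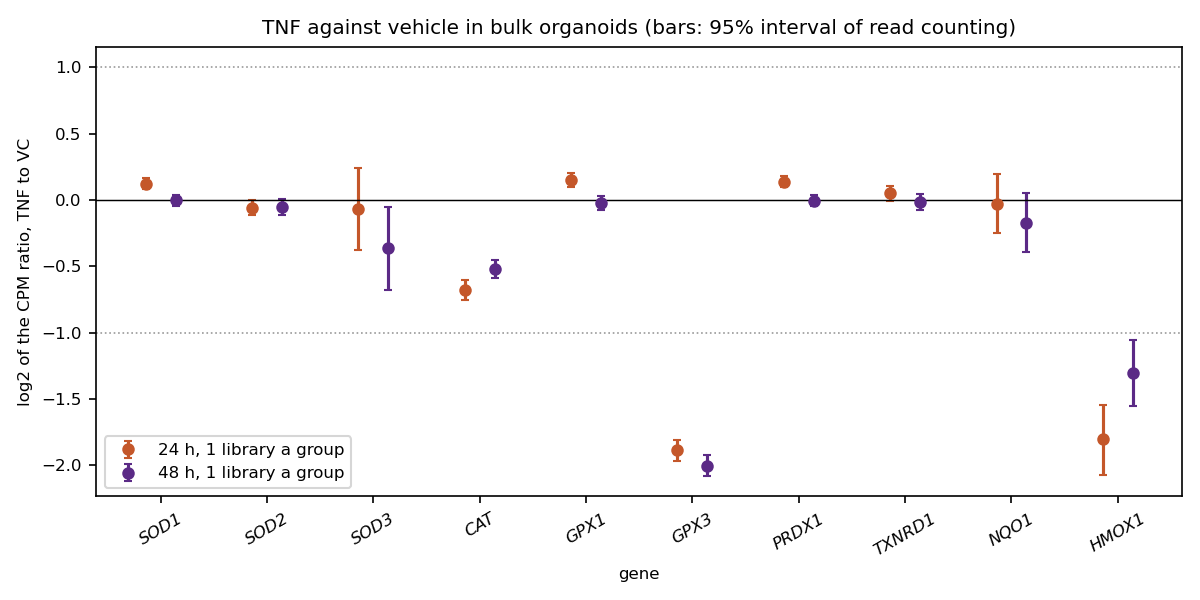
The log2 of the CPM ratio of TNF to VC (y axis) for the 10 genes (x axis) in bulk organoids at 24 h and 48 h, with 1 library a group and bars for the 95% interval of read counting, and dotted lines at a ratio of 2-fold. GPX3 and HMOX1 lie below the lower dotted line at both times, CAT is at 62.5% and 69.7% of VC, and SOD2 is at 96.1% and 96.6%.

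Podocyte and proximal tubule markers were lower with TNF too, while early nephron markers were not lower at both times. The 8 proximal tubule markers summed to 1063 CPM in each VC library and to 605 and 692 CPM with TNF, and the 8 podocyte markers to 7045 and 6541 CPM with VC and to 4299 and 3187 CPM with TNF. The early nephron markers summed to 1661 and 1719 CPM with VC and 1631 and 1922 CPM with TNF. The stromal markers summed to 6565 and 8078 CPM with VC and 8206 and 8565 CPM with TNF. No leukocyte marker of 5 was listed. The part of these markers in the bulk values was not tested, but the single-cell levels within classes are given next.

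Of the related genes in bulk, no other antioxidant enzyme of 27 and no NRF2 target of 21 lay past 2-fold under TNF at either time. Of all genes, 2.01% did at 24 h and 1.82% at 48 h. The regulator MAFF, a small Maf protein that pairs with NRF2, went from 15.2 to 53.2 CPM at 24 h and from 6.86 to 18.2 CPM at 48 h, the only 1 of 10 regulators past 2-fold. SQSTM1, which binds KEAP1, was 146 with VC and 240 CPM with TNF at 24 h, and 141 and 176 CPM at 48 h. EPHX1 was 88.1 and 57.5 CPM at 24 h and 86.5 and 48.2 CPM at 48 h, and SLC7A11 6.01 and 9.43 CPM at 24 h and 5.58 and 10.0 CPM at 48 h. NOX4, an oxidase that makes peroxide in the kidney, was 14.0 and 7.51 CPM at 24 h, and 12.9 and 8.16 CPM at 48 h. Smaller differences with the same sign at both times were GPX4 at 0.35 and 0.22 and MSRA at -0.56 and -0.61 on the log2 scale, ME1 at 0.73 and 0.41 and AKR1C3 at -0.53 and -0.72, and CYBA, an oxidase subunit, at 0.54 and 0.20. Median log2 differences at 24 h were -0.03 for the other enzymes, 0.14 for the NRF2 targets, 0.16 for the regulators and 0.12 for the sources, against -0.04 for all genes. At 48 h they were -0.10, 6.1e-05, 0.02 and 0.13 in the same order, against -0.01 for all genes. The medians of the NRF2 targets and regulators were thus near that of all genes at 48 h.

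The single-cell libraries held 11906 VC cells with a median of 6358.5 unique molecules (UMIs) and 23160 TNF cells with a median of 2599, after cells with 500 genes or fewer were left out, and they shared 82 cell barcodes. Clusters were named from marker lists, and 1384 VC and 4256 TNF cells were podocyte-like. The proximal tubule-like class held 1277 and 3569 cells and the stromal-like class 2570 and 4426, while 26.0% and 16.6% of cells stayed unnamed. In the clusters of these 3 kidney classes at least 7 of the 8 markers of the list were raised. At a resolution of 0.5, 3459 cells (1010 VC and 2449 TNF) with 5 raised early nephron markers stood apart. The proximal tubule-like class then held 267 VC and 1120 TNF cells. In each library these counts add up to the proximal tubule-like class used here, so most of its cells took the early nephron name at that resolution. The proximal tubule gene CUBN reached 1.77% of its proximal tubule-like level in stromal-like cells with VC and 4.76% with TNF, a measure of RNA from other cells. Levels are UMIs scaled to the total of the class (CPM), their exact Poisson intervals take in counting error alone, and with 1 library a group no test was made.

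SOD2, flat in bulk, was higher with TNF in part of the single cells. In stromal-like cells it went from 23.3 CPM (95% interval 20.8 to 26.0) with VC to 43.3 CPM (40.2 to 46.6) with TNF, a ratio of 1.86 (1.63 to 2.13). In podocyte-like cells it went from 25.7 to 34.4 CPM, a ratio of 1.34 (1.18 to 1.53). Proximal tubule-like cells held 38.6 and 39.3 CPM, a ratio of 1.02 (0.912 to 1.13), and without alignment of the libraries or with finer clusters this ratio was below 1. Over all cells SOD2 was 29.8 CPM with VC and 36.5 CPM with TNF, a ratio of 1.22 (1.16 to 1.29), whereas the bulk ratio at 24 h was 0.961. Among all genes with at least 50 UMIs, the 5th to 95th percentile of ratios was 0.601 to 1.79 in stromal-like cells. It was 0.597 to 2.27 in podocyte-like cells and 0.579 to 1.53 over all cells. SOD2 thus lay inside this range in podocyte-like cells and over all cells, and a little above it in stromal-like cells. The bulk and the single cells differ in day, in harvest and in the part of the transcript that is read, and their difference was not tested.

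With VC the proximal tubule-like cells had the highest SOD2, clear of the next class by its interval, followed by neuronal-like (32.3 CPM), proliferating (28.8), muscle-like (26.7), podocyte-like, neural progenitor-like or glial-like (24.7) and stromal-like cells, whose intervals overlapped from each to the next. With TNF stromal-like cells came first, and every neighbour in the order overlapped. The TNF to VC ratio of NFKBIA, an NF-kB target, was 5.54 in stromal-like, 6.54 in podocyte-like and 4.55 in proximal tubule-like cells. ICAM1 had ratios of 25.0, 52.1 and 14.3 in the same order. Across the 7 named classes in both libraries, among the genes whose log2 levels ran most like those of SOD2 were ADM2, UGCG, FAM167A and SOX9, with Pearson r of 0.857 to 0.870 over 14 points and 15353 genes compared. The 14 points come from 2 libraries of unequal depth, so r is a description only.

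SOD1 was 503 CPM with VC and 502 CPM with TNF in podocyte-like cells, where it was highest in both libraries. It was 391 and 366 CPM in proximal tubule-like cells and 316 and 349 CPM in stromal-like cells, ratios of 0.937 (0.906 to 0.970) and 1.11 (1.06 to 1.15). SOD3 was highest in proximal tubule-like cells with VC, at 8.81 CPM, and stood at 3.46 CPM there with TNF, a ratio of 0.393 (0.284 to 0.536) on 166 and 55 UMIs. In stromal-like cells it was 5.68 and 5.71 CPM, a ratio of 1.005 (0.736 to 1.38).

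GPX3 was found mainly in the 2 epithelial classes with VC, at 46.8 CPM in proximal tubule-like and 46.5 CPM in podocyte-like cells, whose intervals overlapped. The match rests on how the class is cut, since the proximal tubule-like level with VC was 111 CPM at a resolution of 0.5 and 100.4 CPM with classes by marker count, against 46.5 and 44.1 CPM in podocyte-like cells. The other 5 classes held 1.94 to 5.54 CPM. With TNF it was 10.7 CPM in proximal tubule-like cells, a ratio of 0.229 (0.193 to 0.270), and 11.7 CPM in podocyte-like cells, a ratio of 0.251 (0.214 to 0.294). The proximal tubule-like ratio was 0.144 at a resolution of 0.5. In stromal-like cells it was 1.94 CPM with VC and 2.05 CPM with TNF, or 4.15% and 19.1% of the proximal tubule-like level, beside 1.35% and 20.6% for LRP2 and 1.77% and 4.76% for CUBN, both genes that stromal cells should lack. The genes most like GPX3 over the 14 points were GPD1, FOLR1, NIT1, ENPP5 and HSD17B14, with r of 0.944 to 0.966.

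**Figure D3:**
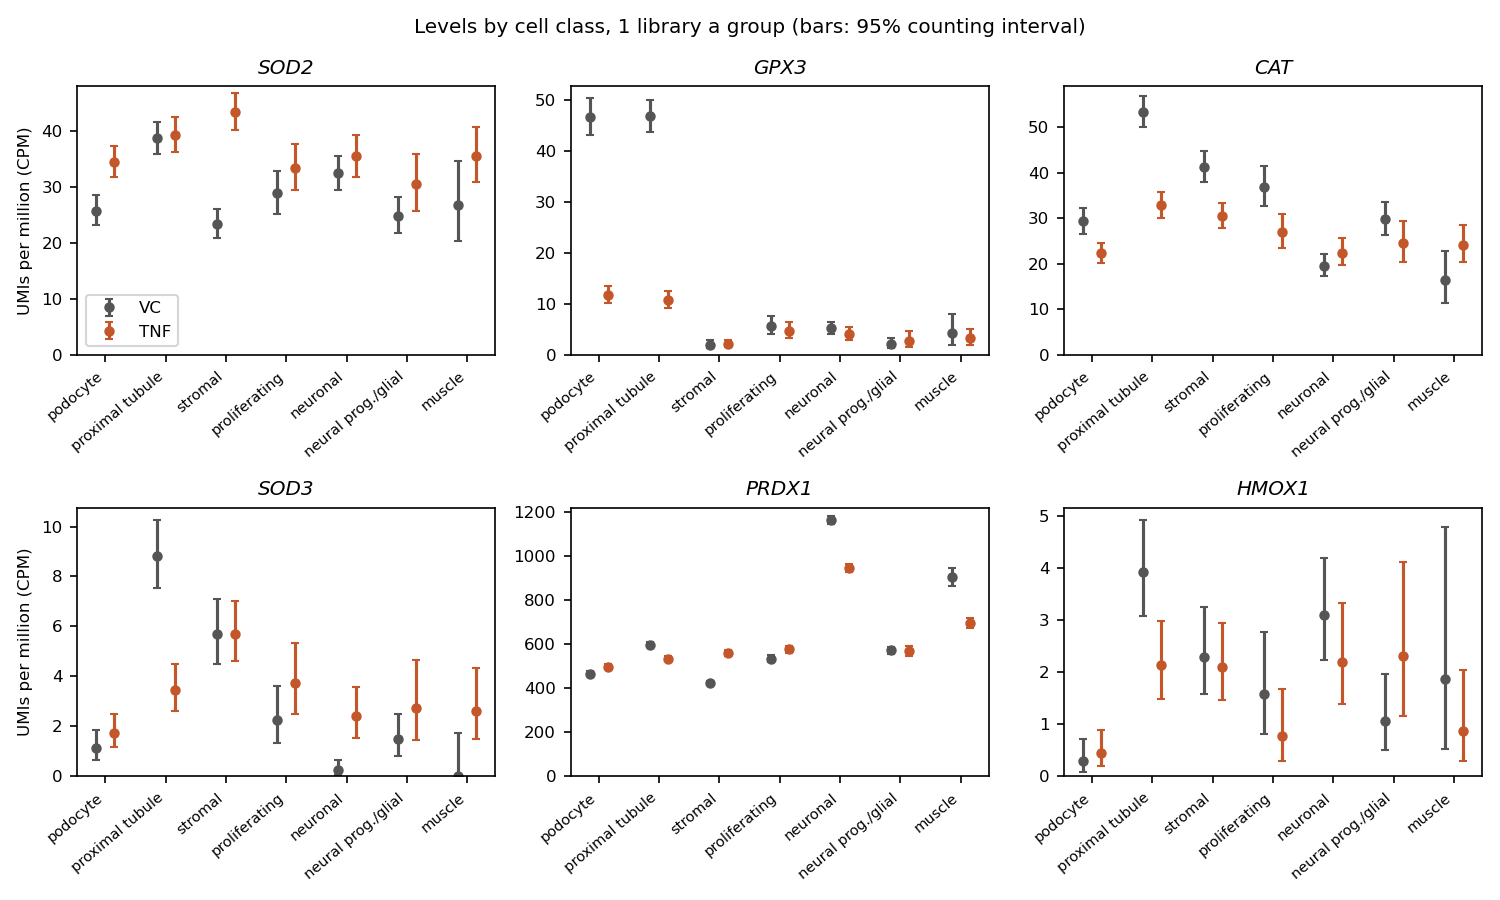
Levels of 6 genes in CPM (y axis, UMIs scaled to the class total, from 0) in the 7 named cell classes (x axis) with VC and TNF, 1 library each, with 95% counting intervals. SOD2 in stromal-like cells is 23.3 with VC and 43.3 with TNF, and GPX3 is near 46 with VC and 11 with TNF in podocyte-like and proximal tubule-like cells and under 6 elsewhere.

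CAT was lower with TNF in each of the 3 kidney classes. It went from 53.4 to 32.8 CPM in proximal tubule-like cells, a ratio of 0.615 (0.552 to 0.684), from 29.3 to 22.3 CPM in podocyte-like cells, 0.762 (0.663 to 0.877), and from 41.3 to 30.5 CPM in stromal-like cells, 0.737 (0.652 to 0.833). PRDX1 was 422 CPM with VC and 558 CPM with TNF in stromal-like cells, a ratio of 1.32 (1.28 to 1.37), and 464 and 496 CPM in podocyte-like cells, 1.07 (1.03 to 1.10). In proximal tubule-like cells PRDX1 was 596 and 532 CPM, a ratio of 0.893 (0.868 to 0.919). Neuronal-like cells had the most PRDX1 in both libraries, 1162 and 944 CPM.

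TXNRD1 was 32.5 CPM with VC and 44.9 CPM with TNF in podocyte-like cells, a ratio of 1.38 (1.23 to 1.55), and 47.7 and 48.2 CPM in stromal-like cells. In proximal tubule-like cells its ratio was 1.15 (1.03 to 1.28), but below 1 under 3 other ways to define the class. NQO1 was 8.84 and 5.71 CPM in stromal-like cells, a ratio of 0.645 (0.487 to 0.852), and its podocyte-like and proximal tubule-like ratios had intervals that held 1, although the latter was 0.537 with classes by marker count against 0.863 here. HMOX1 was 3.93 CPM with VC and 2.14 CPM with TNF in proximal tubule-like cells, a ratio of 0.545 (0.352 to 0.828) on 74 and 34 UMIs, while stromal-like cells had 2.30 and 2.11 CPM. At a resolution of 0.5 the proximal tubule-like ratio of HMOX1 was 0.274 from a VC level of 9.66 CPM, and without alignment of the libraries the ratio was 0.792. In the podocyte-like class only 4 and 8 UMIs of HMOX1 were counted. Over all cells the HMOX1 ratio was 0.687 (0.552 to 0.852), a smaller difference than in bulk at 24 h, where it was 0.287 (0.238 to 0.342). The gap between bulk and single cells was not tested.

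Among genes with at least 50 UMIs, 1 of 7 members in podocyte-like cells, 2 of 9 in proximal tubule-like cells and 0 of 9 in stromal-like cells differed at least 2-fold between TNF and VC. Of all such genes 9.29%, 6.22% and 5.96% did, in the same order. The median ratio of the members was 1.07, 0.863 and 1.01, against 0.985, 1.04 and 0.966 for all genes.

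**Figure D4:**
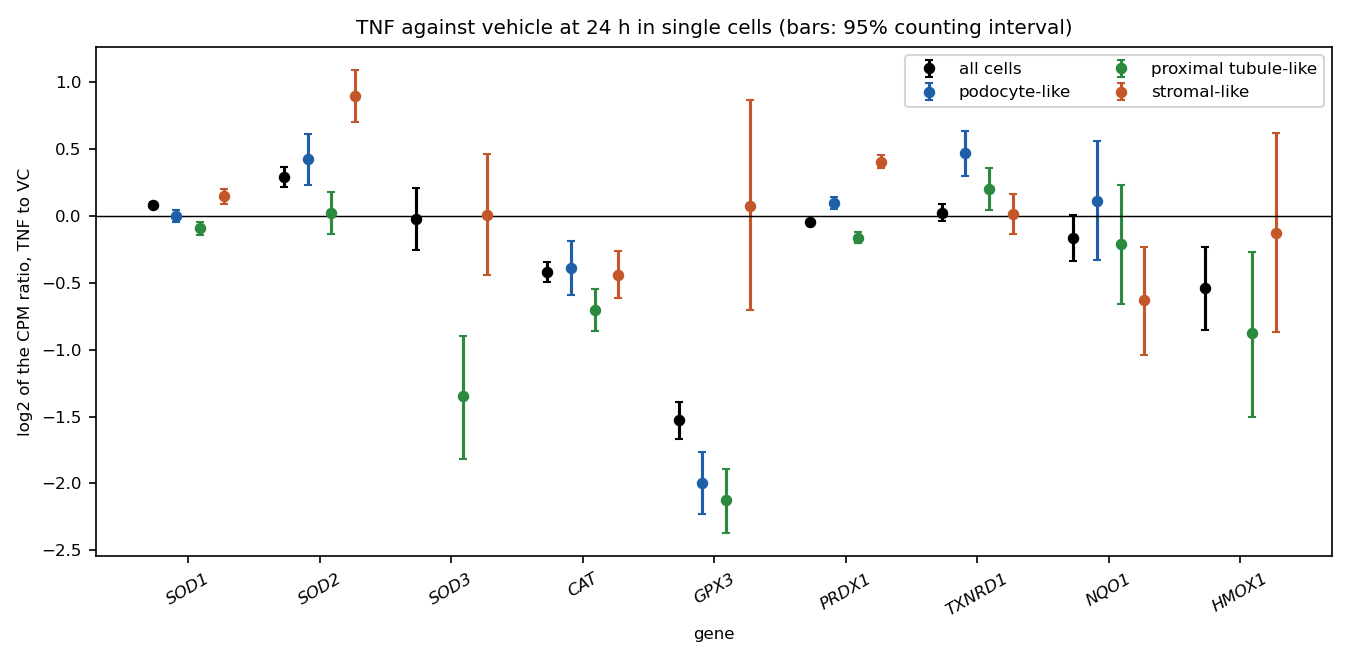
The log2 of the CPM ratio of TNF to VC at 24 h (y axis) for 9 genes (x axis) in all cells and in each of the 3 kidney classes, shown where a gene has at least 50 UMIs, with 95% counting intervals. SOD2 has ratios of 1.86 in stromal-like, 1.34 in podocyte-like and 1.02 in proximal tubule-like cells, GPX3 is near 0.24 in both epithelial classes, and CAT lies below 1 in all 4 groups of cells.

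Among regulators with at least 50 UMIs, 1 of 10 in podocyte-like, 0 of 10 in proximal tubule-like and 2 of 10 in stromal-like cells were at least 2-fold higher with TNF, and none were lower. Of all genes with that many UMIs, 9.29%, 6.22% and 5.96% differed at least 2-fold in these classes, in the same order. MAFF had a ratio of 6.98 (4.52 to 11.3) in podocyte-like, 4.51 (2.95 to 7.16) in stromal-like and 2.00 (1.41 to 2.85) in proximal tubule-like cells. Before rounding, the ratio in proximal tubule-like cells was just under 2-fold, so the count of 0 there turns on the threshold. NFE2L2 had ratios of 1.32 (1.22 to 1.43) in podocyte-like, 1.22 (1.12 to 1.33) in proximal tubule-like and 1.02 (0.958 to 1.09) in stromal-like cells. Of 27 other antioxidant enzymes with at least 50 UMIs, only MSRB3 in proximal tubule-like cells was 2-fold apart, with a ratio of 2.20 (1.73 to 2.80). GPX4, which reduces lipid peroxides, had ratios of 1.37 (1.34 to 1.41) in podocyte-like, 1.34 (1.30 to 1.38) in stromal-like and 1.04 (1.01 to 1.06) in proximal tubule-like cells. MAFK, another small Maf protein, had a ratio of 2.20 (1.32 to 3.78) in stromal-like cells on 22 and 56 UMIs. Of 19 NRF2 targets in podocyte-like cells, 2 were at least 2-fold higher, AKR1C2 with a ratio of 2.36 (1.45 to 3.97) and ME1 with 2.29 (1.51 to 3.57), and EPHX1 was lower, at 0.410 (0.382 to 0.440) of its VC level. No NRF2 target was 2-fold apart in the other two kidney classes. MAOB had ratios of 3.03 (2.11 to 4.44) in stromal-like and 2.55 (1.97 to 3.32) in podocyte-like cells.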

How the data were processed

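Per the labels and the study's methods, the authors aligned bulk reads to GRCh38 with STAR 2.7.8a, counted them per gene with HTSeq (0.11 in the submitters' processing notes, a later version in the methods) and deposited log2 values of CPM with 1 added, 1 table per set, and the values show that 0.5 reads had been added to each count. Undoing this gave whole reads for the listed genes (largest distance 3.29e-09 reads), and the printed CPM keep the 0.5. For single cells the authors deposited UMI counts from Cell Ranger, named as 2.1.1 in the submitters' processing notes and as a later version in the matrix header. Days were compared in set 2 by limma 3.58.1 on the deposited log2 values (R 4.3.3, with the mean-variance trend, all 6 libraries, Benjamini-Hochberg over all genes). edgeR 4.0.16 and DESeq2 1.42.0 on the recovered reads were alternatives. On simulated set 2 data with 27650 genes, limma recovered 86 of 100 changes of log2 1 in genes over 10 CPM and 25 of 100 below, which holds for D29 against D21. In the same simulation edgeR recovered 100 of 100 over 10 CPM and 75 of 100 below, with 14 false calls against 0 for limma. Set 1 and the TNF set have 1 library a group and got ratios with exact counting intervals.

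Cells with over 500 genes were aligned across libraries by the Harmony method, written anew here, on 30 components of 3453 variable genes, without the genes described here, and clustered by Leiden at resolution 0.25 (Python 3.11.15, scanpy 1.11.5). A cluster took a name from at least 3 markers of a list at 20 CPM or more and 2-fold over other cells, and clusters under 50 cells stayed unnamed, a limit set after seeing the data. The automatic Scrublet threshold marked 2.85% of VC cells and 0 TNF cells, so it did not work there, and the 5% with the highest scores were left out of each library as an alternative chosen after seeing the data. The genes and lists were chosen with earlier results of these data known. Related genes are named by a rule, the 2 largest passing rises and falls by day in each list and the 2 largest rises and falls under TNF with the same sign at both times and a mean of at least 1 CPM. MAFK, AKR1C2 and ME1 in single cells, NFKBIA, CUBN, LRP2 and the genes most like GPX3 were chosen after their values were seen. Some items are not reported here.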

Additional observations from a re-analysis of the deposited data

Results flagged for a closer look

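Members whose counting intervals lay on opposite sides of 1 in a pair of kidney classes under TNF are given here. PRDX1 had a TNF to VC ratio of 1.32 in stromal-like cells and 1.07 in podocyte-like cells but 0.893 in proximal tubule-like cells. SOD1 had a ratio of 1.11 in stromal-like and 0.937 in proximal tubule-like cells. With 1 library a group, these differences between classes were not tested. In bulk at 24 h, over all cell types, the log2 differences were 0.14 for PRDX1 and 0.12 for SOD1.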

How the results depend on the processing

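The day counts of members held within 1.5 times under other tests, scalings, filters and samples in the fit. Leaving out a library gave 1 to 3 genes for D29 against D21, 0 to 1 for D25 against D21 and 0 to 1 for D29 against D25. The labels do not say whether Org1 and Org2 are linked across days, and the main fit does not pair them. Deviations of same-numbered libraries correlated at 0.102, 0.0611 and 0.202 between days, which does not settle it. With the replicate block, 2, 1 and 1 members passed as before, while all genes passing went from 5081 to 6056, from 1486 to 2091 and from 574 to 1118. Centring on library medians turned small D29 to D21 log2 differences to -0.023 for SOD1, -0.021 for GPX1 and -0.025 for PRDX1, and DESeq2 that of TXNRD1 to 0.00055. These differences passed no test. Centring also turned the SOD2 difference, which is given with no test, to -0.091. Leaving out libraries moved SOD2 between -0.028 and 0.042, SOD1 between -0.0068 and 0.16, CAT between -0.0085 and 0.22, PRDX1 between -0.0079 and 0.15 and TXNRD1 between -0.064 and 0.0096. The causes were not tested. Of 6 alternatives for the member counts under TNF none changed a count by over 1.5 times, the largest being 3 genes at each time with a log2 threshold of 0.5. Of all 21093 genes, 1838 at 24 h and 1674 at 48 h lay past that threshold.

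Without alignment of the libraries, 67.1% of TNF cells and 26.6% of VC cells stayed unnamed. The podocyte-like class then held 1186 TNF cells and the proximal tubule-like class 758, against 4256 and 3569 with alignment. Ratios without alignment thus rest on fewer TNF cells, and many TNF cells took a class only through the alignment. In single cells the SOD2 ratio in podocyte-like cells was 1.10 without alignment. In proximal tubule-like cells it was 0.831 at a resolution of 0.5 and 0.890 without alignment, and in stromal-like cells it was 1.62 with classes by marker count. TXNRD1 in proximal tubule-like cells turned to 0.968 at a resolution of 0.5, 0.961 without alignment and 0.974 by marker count. GPX3 in podocyte-like cells was 0.344 without alignment and in proximal tubule-like cells 0.144 to 0.305 over the alternatives. GPX3 in stromal-like cells, on few UMIs, was 0.526 without alignment. The VC level of SOD3 in proximal tubule-like cells was 13.4 by marker count and 14.99 at a resolution of 0.5, against 8.81 CPM. Of 162 alternative levels 120 and of 162 alternative ratios 139 stayed within the main interval.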
